A study of Saccharomyces cerevisiae with 10 samples.

Results

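Yeast cells that had spent 1 h in medium made 1.5 M in potassium chloride were compared with unstressed control cells. The comparison rests on 4 of the 10 libraries of a time course, chosen by their stress labels: 2 libraries taken at 1 h and 2 taken at 0 h, 1 of each from replicate time series a and 1 from series b. All 4 came from wild-type BY4741, a haploid laboratory strain of Saccharomyces cerevisiae of mating type a with deletions of auxotrophic marker genes, grown to mid-log phase in synthetic complete medium. The 0 h samples are the study's controls, taken at the onset of the stress, and the labels give no other treatment or genotype. RNA from whole cells was purified for its poly(A) tails, and libraries were built from randomly primed cDNA. The design text calls the series independent replicate experiments without saying how the cultures were started, so p-values measure the spread between these samples.

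A high salt concentration draws water out of a yeast cell. The cell senses this through the high osmolarity glycerol (HOG) pathway, a cascade of kinases that ends in the MAP kinase Hog1. Active Hog1 enters the nucleus and turns on genes for making and holding glycerol, the compatible solute of this species, while the zinc finger activators Msn2 and Msn4 turn on a wider set of stress genes through a short promoter sequence called the stress response element.

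The 0 h libraries held 4654345 and 4676814 reads on 5989 coding sequences, and the 1 h libraries held 3862638 in series a and 7851019 in series b. Levels are CPM, each library's reads scaled to a common total by edgeR's TMM method, given for series a and then series b. Fold changes are log2 values of 1 h over 0 h with a standard error (SE), and a gene was called where edgeR's quasi-likelihood test gave a Benjamini-Hochberg adjusted p under 0.05. To check the strain label, the a-type genes STE2, STE6, BAR1, MFA1 and MFA2 stood between 178 and 1014 CPM in these libraries, and the deleted LEU2 and MET17 had 0 reads in all 4, which allows up to 0.413 to 0.833 CPM by library. URA3 had 0 to 5 reads and HIS3 had 0 to 7. Alpha-type genes were lower but not all near 0. MF(ALPHA)1 went from 0.929 and 0.914 CPM at 0 h to 3.89 and 5.37 CPM at 1 h, STE3 from 9.99 and 11.2 to 19.4 and 19.2 CPM, MF(ALPHA)2 from 16.7 and 12.1 to 14.2 and 10.1 CPM and SAG1 from 71.3 and 88.2 to 55.8 and 54.6 CPM.

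The response at 1 h was wide but mostly small, with a minority of genes that rose very strongly. Of 5943 genes tested, 3383 (56.9%) were called, 1714 higher (28.8%) and 1669 lower (28.1%). Counts of called members in the gene lists below are to be read beside these shares. Of the called genes, 2187 (64.6%) differed by less than 1.5-fold. At least 2-fold changes were unequal in direction, with 417 genes higher (7.02%) and 110 lower (1.85%), and 143 genes were at least 4-fold higher against 18 that were at least 4-fold lower. The genes at least 2-fold higher took 1.76% of all reads in both 0 h libraries and 8.20% and 8.10% at 1 h. The genes at least 2-fold lower went from 4.29% and 4.23% of reads to 1.39% and 1.36%. The median over all genes tested was a log2 fold change of 0.0042, and levels are shares of the poly(A) RNA, so fewer cells of a kind and less RNA per cell cannot be told apart. Reads on the 4 reading frames that overlap 25S ribosomal RNA, which has no regular poly(A) tail, were higher in both 1 h libraries. TAR1 went from 348 and 394 to 5692 and 6014 CPM and YLR154C-G from 216 and 200.2 to 5438 and 5463 CPM. Together the 4 frames went from 601 and 640 to 12114 and 12337 CPM, with log2 fold changes of 3.98 to 4.86. All 4 are among the 417 genes at least 2-fold higher, so they add to that set's share of reads. The part of ribosomal RNA in the other results was not tested.

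**Figure D1:**
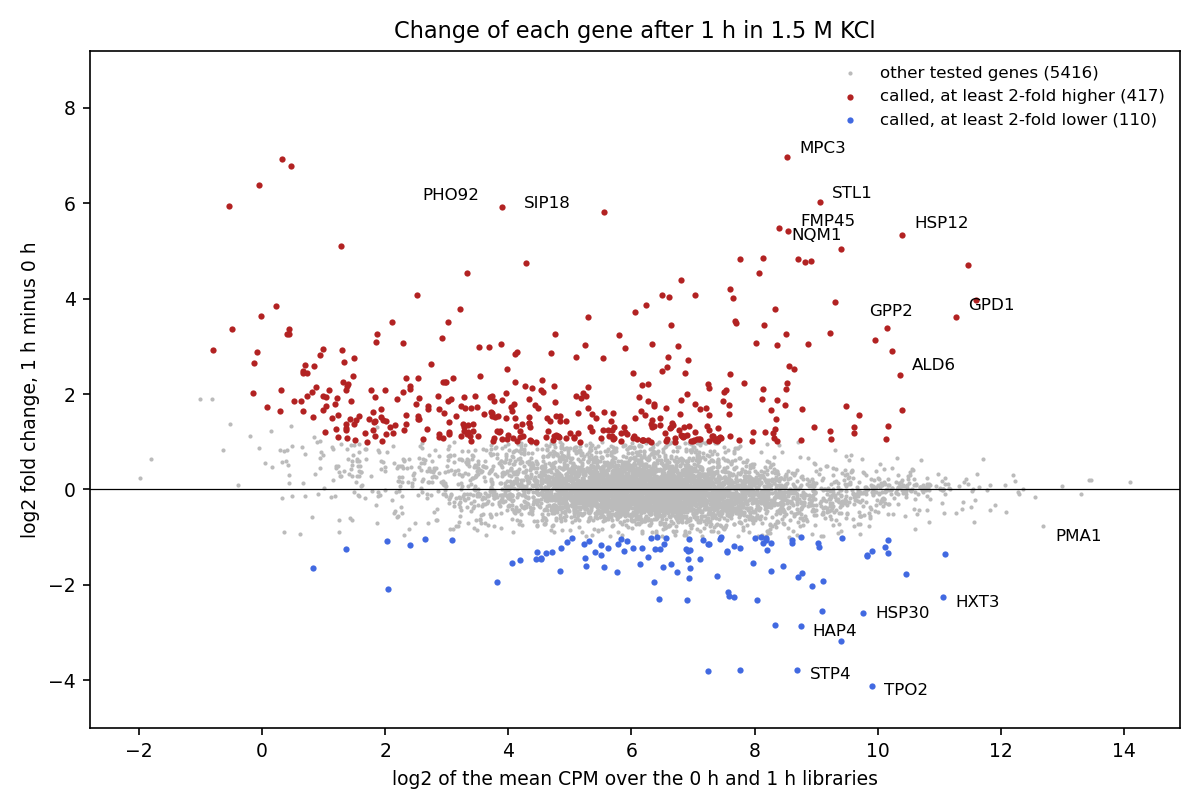
Log2 fold change of 1 h over 0 h (vertical axis) against the log2 of the mean CPM over the 4 libraries (horizontal axis), with 1 point per tested gene. Red points are the 417 called genes at least 2-fold higher and blue points the 110 at least 2-fold lower; they extend to log2 fold changes of 6.96 (MPC3) and -4.12 (TPO2).

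Among called genes with a mean of at least 10 CPM at 1 h, MPC3 and STL1 rose most. MPC3 encodes the subunit that the mitochondrial pyruvate carrier uses under respiratory conditions, and it went from 6.27 and 5.48 CPM to 743 and 728 CPM (log2 fold change 6.96 with SE 0.11, adjusted p = 1.5e-20). STL1, the glycerol and proton symporter that takes glycerol up from the medium, went from 16.7 and 15.5 CPM to 1054 and 1044 CPM (log2 fold change 6.02 with SE 0.078, adjusted p = 1.1e-21). HSP12, a small protein that binds and stabilises membranes, went from 68.1 and 61.9 CPM to 2660.4 and 2593 CPM (log2 fold change 5.34 with SE 0.066, adjusted p = 1.1e-21). For all 3 genes both 1 h libraries were far above both 0 h libraries. PHO92, which encodes an RNA-binding protein that reads methylated adenosine in meiosis, had 3 and 1 reads at 0 h and 111 and 204 at 1 h. SIP18, a hydrophilin gene (a small hydrophilic protein linked to survival of drying), had 9 and 5 reads at 0 h and 344 and 647 at 1 h. Both had few reads before the salt in either library, so no fold is given for them.

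The stress response element is CCCCT, read on either strand. In the 500 bases upstream of the start codon it occurred at least once in 34.2% of the 5931 genes with a full window, in 53.9% of the 416 such genes at least 2-fold higher at 1 h and in 33.6% of the 110 at least 2-fold lower. At least 2 copies occurred in 8.21% of all windows, in 23.3% of those at least 2-fold higher and in 35.9% of the 142 at least 4-fold higher. In the 29 genes at least 16-fold higher the shares were 58.6% with at least 1 copy and 31.0% with at least 2, below those of the 142. Of the genes whose rises are described here, ALD2, GRE1 and DAK1 had 0 copies in their windows, while ALD3, GND2 and HXT5 had 2. The following 150-base stretches, from RefSeq's R64 genome, are examples from such genes that hold the element. Each is read 5′ to 3′ on the plus strand, the coding strand of these genes, and capitals mark the element as CCCCT or, on the other strand, AGGGG. They cover chrVI:106778-106927 for HSP12, chrVII:654191-654340 for CTT1, chrIV:1507755-1507904 for STL1, chrIV:411445-411594 for GPD1 and chrVII:976926-977075 for MPC3, all upstream of the coding sequence.
HSP12: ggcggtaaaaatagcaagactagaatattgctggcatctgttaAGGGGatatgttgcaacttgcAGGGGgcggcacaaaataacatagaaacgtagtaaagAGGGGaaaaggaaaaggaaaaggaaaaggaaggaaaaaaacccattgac
CTT1: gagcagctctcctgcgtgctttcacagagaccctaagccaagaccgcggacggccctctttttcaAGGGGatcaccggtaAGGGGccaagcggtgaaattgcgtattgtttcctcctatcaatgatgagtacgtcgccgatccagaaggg
STL1: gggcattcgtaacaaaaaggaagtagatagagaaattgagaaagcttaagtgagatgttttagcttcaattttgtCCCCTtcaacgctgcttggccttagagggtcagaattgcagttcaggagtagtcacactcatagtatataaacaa
GPD1: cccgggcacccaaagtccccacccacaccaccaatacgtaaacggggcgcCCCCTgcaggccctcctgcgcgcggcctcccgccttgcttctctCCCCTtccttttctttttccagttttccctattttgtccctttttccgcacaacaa
MPC3: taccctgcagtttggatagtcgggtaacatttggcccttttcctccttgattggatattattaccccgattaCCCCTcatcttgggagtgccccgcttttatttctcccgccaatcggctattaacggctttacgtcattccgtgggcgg

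The HSP12 stretch held 3 copies of 5 in its whole window, that of CTT1 2 of 3, that of GPD1 2 of 3, and those of STL1 and MPC3 the 1 copy in each window. Genes with strong falls were mixed. TPO2, the gene with the largest fall, had 0 copies in its window, as had HAP4, HSP30 and HXT3. BAP3 and CMK2 had 1 copy each and CIP1 had 3. The motif GGGACAAA, bound by the HOG pathway activator Hot1, occurred on either strand upstream of 1.38% of all genes, 2.64% of those at least 2-fold higher and 4 of the 29 at least 16-fold higher (13.8%); STL1 and GPD1 each had 1 copy. TGACGT, the core of the site of the HOG-regulated repressor Sko1, was upstream of 13.6% of all genes, 21.4% of those at least 2-fold higher and 41.4% of the 29, while the full palindrome TGACGTCA was upstream of 0 of the 29, 0.721% of those at least 2-fold higher and 0.186% of all genes. Motifs linked to ribosome biogenesis were less frequent in the genes at least 2-fold higher. GATGAG was upstream of 28.3% of all genes, 22.1% of those at least 2-fold higher and 27.27% of those at least 2-fold lower. For AAAAATTT the shares were 20.6%, 12.3% and 25.45%. These are counts of letters in a window, without a test, and a match is not a bound site.

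**Figure D2:**
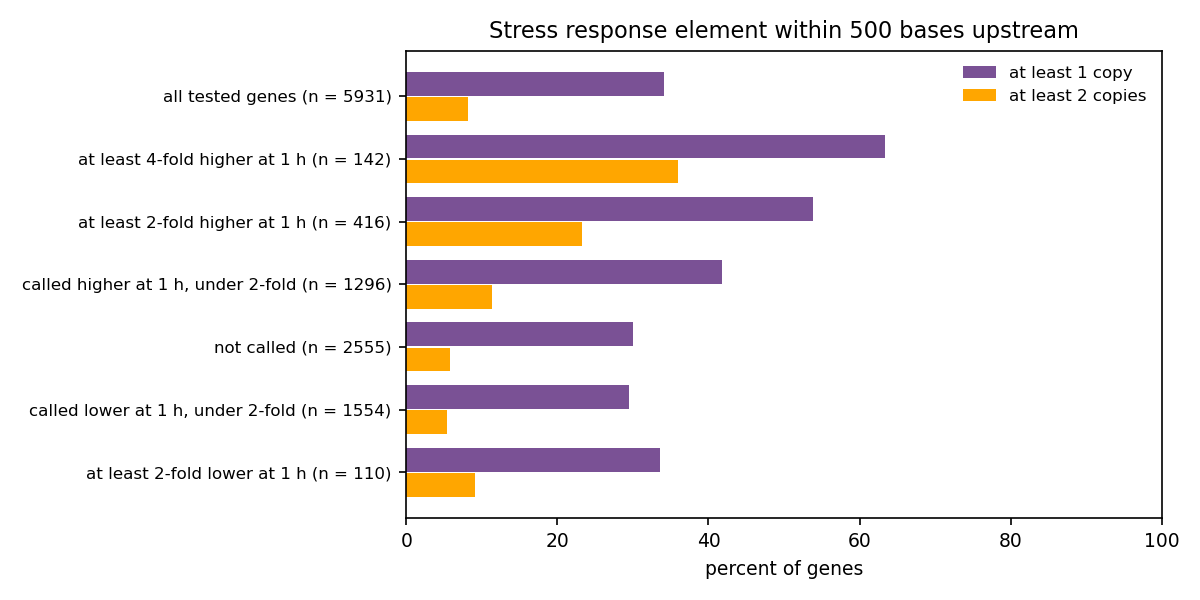
Percent of genes (horizontal axis) with at least 1 (purple) or at least 2 (orange) copies of the stress response element within 500 bases upstream, by the gene's change at 1 h. The share with at least 1 copy was 63.4% in the 142 genes at least 4-fold higher and 30.0% in the 2555 genes not called.

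Genes of glycerol synthesis divided between isoenzymes. In this group 11 of 16 genes were called higher and 5 lower, where 28.8% and 28.1% of all genes were, with a median log2 fold change of 0.94. GPD1, the glycerol 3-phosphate dehydrogenase of osmotic stress, stood at 378 and 373 CPM at 0 h and 4604 and 4555 CPM at 1 h (log2 fold change 3.61 with SE 0.050, adjusted p = 2.9e-21). Its isoenzyme GPD2, used when oxygen is short, went from 394 and 379 to 197 and 197 CPM (log2 fold change -0.97 with SE 0.053, adjusted p = 6.6e-12). The libraries of the 2 times did not overlap for either gene, and the directions were opposite. Per kilobase of coding length the genes were close before the salt, at a mean level of 319.6 CPM for GPD1 and 292 for GPD2, and far apart at 1 h, at 3894 and 149. The glycerol 3-phosphatase gene GPP2 rose from 195 and 202 to 2100.3 and 2059.7 CPM (3.39, SE 0.055), and its partner GPP1 rose less, from 1352 and 1278 to 2063 and 1970.0 CPM (0.62, SE 0.049), so that both had about the same level per kilobase at 1 h (2762 and 2678 CPM). In glycerol breakdown, DAK1 (dihydroxyacetone kinase) rose by a log2 fold change of 2.53, SE 0.061 and GUT2 (mitochondrial glycerol 3-phosphate dehydrogenase) by 1.69, SE 0.067.

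Other pairs of related genes split in the same manner. In 61 pairs of isoenzymes or paralogs, 23 had 1 gene at least 2-fold higher and the other not, and 10 of these 23 partners were called lower. In 18 of the 23 the gene that rose had been the lower of the pair per kilobase at 0 h, and in 14 it was the higher at 1 h. Both levels enter the fold change by which that gene was picked, so these counts were partly fixed by the choice. In 6 pairs both genes were at least 2-fold higher, in 6 only 1 was at least 2-fold lower, in 2 both were, and in 24 neither gene reached 2-fold. The pairs were picked from known biology with earlier results of these data in view, and the difference within a pair was not tested.

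MPC3 and MPC2 encode alternative partners of MPC1 in the pyruvate carrier. MPC3 rose from a mean of 13.3 to 1668 CPM per kilobase and passed MPC2, which was at 755 and 671. MPC2 stood at 312 and 278 CPM at 0 h and 271 and 253 CPM at 1 h, a small fall (log2 fold change -0.18 with SE 0.073, adjusted p = 0.048) that was not called by DESeq2's Wald test, with the 0 h and 1 h libraries alone, without the series a library of 0 h or without the series b library of 1 h.

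In the pentose phosphate pathway, which supplies NADPH and pentoses, 3 minor isoenzymes rose while their major partners fell. NQM1, a transaldolase, went from 16.5 and 12.8 to 646 and 667 CPM (log2 fold change 5.49 with SE 0.091, adjusted p = 2.7e-20) and its partner TAL1 from 394 and 401 to 277 and 284 CPM (-0.50, SE 0.057). TKL2, a transketolase, went from 34.2 and 30.4 to 866 and 882 CPM (log2 fold change 4.76 with SE 0.078, adjusted p = 2.4e-20) and TKL1 from 998 and 973 to 804 and 831 CPM (-0.27, SE 0.052). GND2, a 6-phosphogluconate dehydrogenase, went from 19.5 and 20.1 to 369 and 366 CPM (log2 fold change 4.21 with SE 0.080, adjusted p = 2.2e-19) and GND1 from 788 and 770.2 to 478 and 452 CPM (-0.75, SE 0.056). In each pair the 1 h libraries of the minor gene lay far above its 0 h libraries and those of the major gene lay below. Per kilobase, NQM1 was above TAL1 at 1 h (655 against 278 CPM), TKL2 and TKL1 were near each other (427 and 400.3), and GND2 stayed below GND1 (249 against 316). Over the whole pathway 7 of 13 genes rose and 3 fell, with a median of 0.29.

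**Figure D3:**
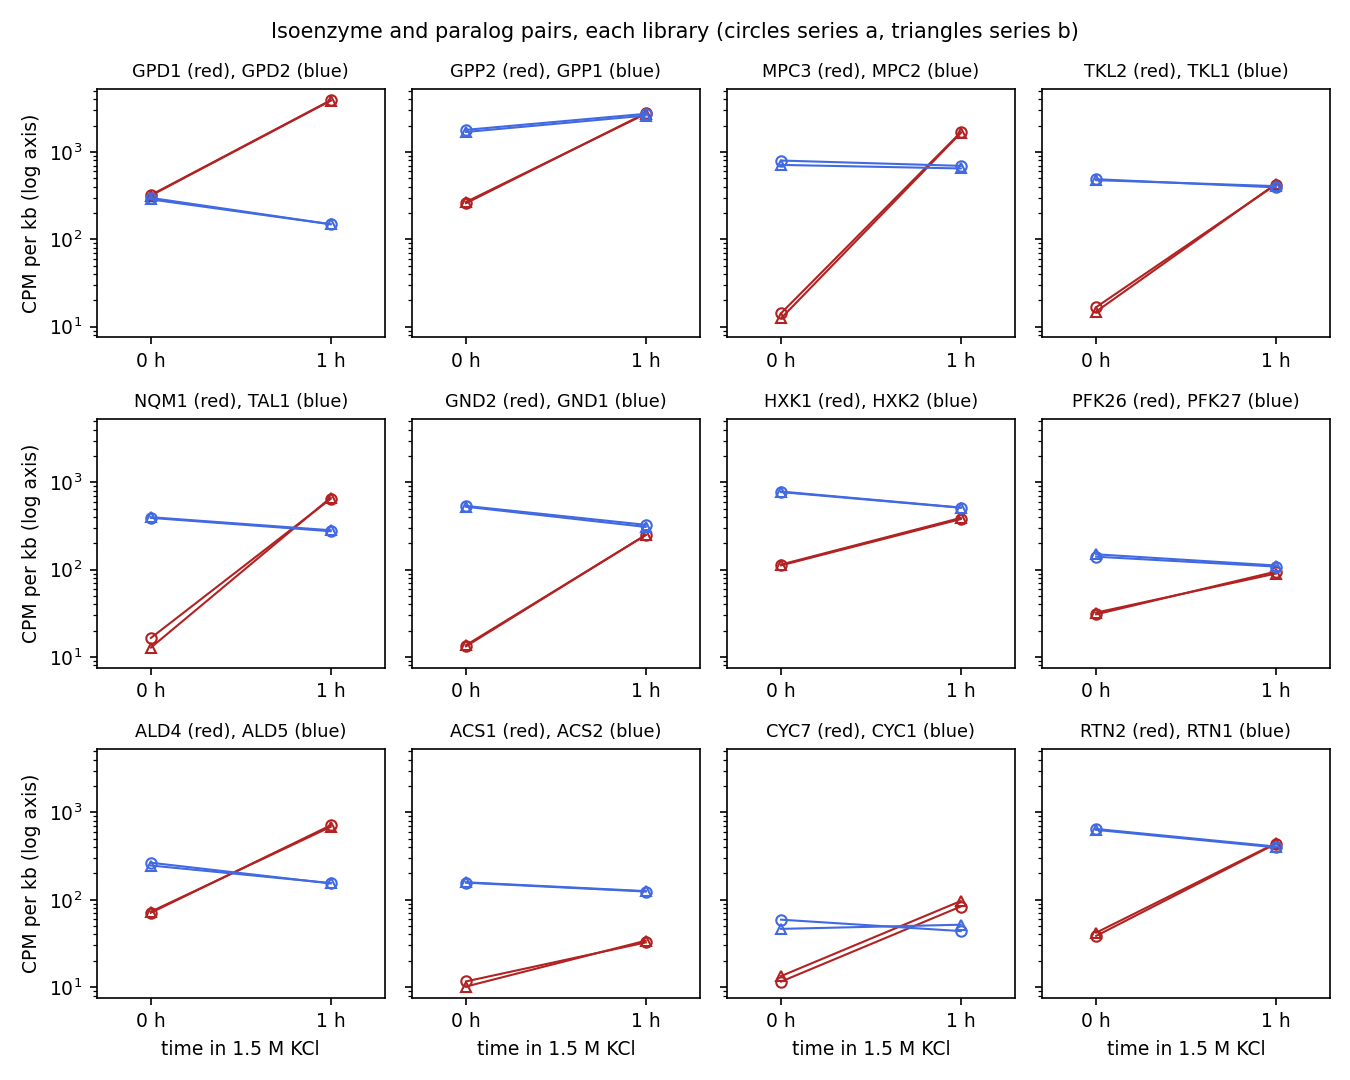
Level per kilobase of coding length (CPM per kb, log axis) at 0 h and 1 h for 12 of the 61 pairs, with 1 line per library series. Red is the gene that rose at least 2-fold (for example TKL2, mean 15.8 to 427) and blue its partner (TKL1, 482 to 400.3).

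Of 7 genes for aldehyde dehydrogenases and acetyl-CoA synthetases, 5 rose, all of them at least 2-fold, and 2 fell (median 2.40). ALD3, a cytosolic enzyme of osmotic stress, went from 39.7 and 39.3 to 1328 and 1292 CPM (log2 fold change 5.05 with SE 0.065, adjusted p = 1.1e-21) and its tandem paralog ALD2 from 36.2 and 31.3 to 392 and 372 CPM (3.50, SE 0.081). ALD2 and ALD3 are closely similar in sequence, so reads may be shared between them. ALD6, the main cytosolic enzyme that makes acetate and NADPH, rose from 449 and 392 to 2231 and 2189.8 CPM (2.40, SE 0.058). The mitochondrial gene ALD4 rose from 111 and 114 to 1110.4 and 1067 CPM (3.27, SE 0.061), while the other mitochondrial gene, ALD5, fell from 415 and 386 to 240.5 and 243 CPM (-0.73, SE 0.056). The 0 h and 1 h libraries did not overlap for these 5 genes. Acetyl-CoA synthetase followed the same form, with ACS1, the form repressed by glucose, higher (1.62, SE 0.10) and ACS2 lower (-0.34, SE 0.054).

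Genes of sugar entry and glycolysis moved in both directions. Of 22 hexose transporters and sensors, 10 rose (45.5% against 28.8% of all genes) and 8 fell (36.4% against 28.1%), with a median of 0.090. HXT3, a low-affinity glucose transporter, fell from 3486 and 3592 to 724 and 757 CPM (log2 fold change -2.26 with SE 0.050, adjusted p = 3.1e-18). HXT4 fell from 471 and 473 to 140.2 and 147 CPM (-1.71, SE 0.058). HXT5, a transporter of slow growth and starvation, rose from 63.7 and 73.3 to 653 and 662 CPM (log2 fold change 3.26 with SE 0.069, adjusted p = 1.3e-18). The 0 h and 1 h libraries of each of the 3 were well apart. Of 29 genes of glycolysis and fermentation, 17 fell and 9 rose, with a median of -0.33. ENO1 (enolase) fell from 3250.0 and 3026 to 1236 and 1207 CPM (-1.36, SE 0.053) and TDH1 (glyceraldehyde 3-phosphate dehydrogenase) from 1420.2 and 1309 to 569.5 and 544 CPM (-1.29, SE 0.056); both have close paralogs. The main pyruvate kinase gene CDC19 was at 8251 and 7722 CPM at 0 h and 8432 and 8281 CPM at 1 h and was not called (log2 fold change 0.065 with SE 0.043, adjusted p = 0.21). Among the rises and falls were 2 pairs: hexokinase 1, HXK1 (1.77, SE 0.060), against hexokinase 2, HXK2 (-0.60, SE 0.050), and PFK26 (1.55, SE 0.064), which makes fructose 2,6-bisphosphate, against PFK27 (-0.40, SE 0.072).

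Genes for growth without glucose were mostly higher when counted by gene. Of 14 genes of gluconeogenesis and the glyoxylate cycle, 11 rose and 2 fell (median 1.15). The largest fall was that of CIT2 (-0.99, SE 0.057), from a mean of 521 to 263 CPM per kilobase. Summed over the list, the level was lower at 1 h, at 1540 and 1525 CPM at 0 h and 1398 and 1380 CPM at 1 h. SIP4, an activator of gluconeogenic genes, rose from 9.29 and 7.997 to 61.4 and 57.7 CPM (log2 fold change 2.77 with SE 0.13, adjusted p = 5.5e-13). The malate synthase gene MLS1 rose from 8.13 and 4.57 to 21.1 and 18.9 CPM (1.63, SE 0.23). PCK1, which encodes the committed enzyme of gluconeogenesis, was at 15.3 and 16.2 CPM at 0 h and 15.6 and 12.1 CPM at 1 h and was not called (log2 fold change -0.24 with SE 0.20, adjusted p = 0.32). The glucose repressor gene MIG2 fell from 279 and 242 to 78.6 and 71.5 CPM (-1.81, SE 0.077), and TOS3, a kinase that activates Snf1, also fell (-1.64, SE 0.075). Of 36 genes of fatty acid oxidation and peroxisomes, 19 rose and 8 fell (median 0.32; 5 fell without the series b library of 0 h), POX1 (acyl-CoA oxidase) among the rises (1.798, SE 0.17).

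Among 27 genes of respiratory complexes III and IV, cytochrome c, the HAP regulators and NADH dehydrogenases, 5 rose and 9 fell (median -0.11). These were 18.5% and 33.3% of the list, against 28.8% and 28.1% of all genes. HAP4, the activating subunit of the HAP complex that drives respiration genes, fell from 767 and 746 to 101 and 104 CPM (log2 fold change -2.87 with SE 0.055, adjusted p = 2.5e-19). The external NADH dehydrogenase NDE1 fell from 762 and 815 to 186 and 197 CPM (-2.04, SE 0.058), and its paralog NDE2 rose from 6.97 and 9.597 to 65.3 and 69.7 CPM (3.03, SE 0.14). CYC7, the cytochrome c of low oxygen and stress, rose from 3.95 and 4.57 to 28.6 and 33.1 CPM (2.88, SE 0.20). Groups did not overlap for any of these 4 genes. In the citrate cycle 6 of 19 genes rose (31.6%, near the 28.8% over all genes) and 9 fell (47.4% against 28.1%). IDH2 (isocitrate dehydrogenase) fell (-0.94, SE 0.055) and the anaplerotic pyruvate carboxylase PYC1 rose (1.67, SE 0.060). The ATP synthase list had 1 gene higher and 6 lower of 15.

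In trehalose metabolism 6 of 8 genes rose and 1 fell (median 0.80): TPS2, trehalose 6-phosphate phosphatase, went from 656 and 629 to 2059 and 2038 CPM (1.67, SE 0.050), and the trehalases NTH1 and ATH1, which break trehalose down, also rose (0.94, SE 0.057, and 1.46, SE 0.082). In glycogen metabolism 11 of 16 rose and 3 fell (median 0.49); the debranching enzyme gene GDB1 rose from 79.2 and 81.1 to 368 and 386 CPM (2.23, SE 0.066). Genes of trehalose synthesis and of its breakdown were thus higher in the same libraries. Of 19 hydrophilins and small stress proteins, 13 rose and 1 fell (median 1.03). GRE1, the paralog of SIP18, rose from 10.7 and 9.82 to 211 and 218 CPM (log2 fold change 4.39 with SE 0.12, adjusted p = 1.2e-16). The hydrophilin STF2 was not called, at 126 and 118 CPM at 0 h and 112 and 117 CPM at 1 h (log2 fold change -0.083 with SE 0.083, adjusted p = 0.41).

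Of 18 Hsp70 and co-chaperone genes 11 rose and 2 fell (median 0.23). SSA4, the inducible Hsp70, rose from 287 and 278 to 2141 and 2089 CPM (log2 fold change 2.91 with SE 0.052, adjusted p = 7.5e-20). SIS1, a partner J-protein and a common readout of the heat shock factor, was at 734 and 715 CPM at 0 h and 724 and 701 CPM at 1 h and was not called (log2 fold change -0.025 with SE 0.052, adjusted p = 0.71). Of 20 genes for Hsp90, Hsp104 and small heat shock proteins 14 rose and 2 fell. The small heat shock proteins HSP26 (2.59, SE 0.074) and HSP42 (1.33, SE 0.057) rose. HSC82, the constitutive Hsp90, was not called (log2 fold change 0.12 with SE 0.058, adjusted p = 0.076). The fit with the replicate block called HSC82 higher, and without the series b library of 1 h its log2 fold change was 0.19. The cytosolic catalase CTT1 rose from 32.8 and 34.7 to 924 and 948 CPM (log2 fold change 4.79 with SE 0.073, adjusted p = 9.0e-21). The list of peroxide and thioredoxin defence that holds CTT1 had 16 of 34 genes higher, 4 lower, 3 at least 2-fold higher and a median of 0.21. In the endoplasmic reticulum, 4 of 18 genes rose and 4 fell (median -0.050), 22.2% each, below the 28.8% and 28.1% over all genes. In protein disposal 18 of 33 proteasome genes rose, 1 fell and the median was 0.16, while the proteasome activator RPN4 rose (1.68, SE 0.059), as did the polyubiquitin gene UBI4 (1.47, SE 0.067). In autophagy 18 of 33 genes rose and 4 fell (median 0.37).

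At the plasma membrane, most genes of eisosomes (protein scaffolds that form furrows in it) rose and most of the proton pump list fell. Of 16 eisosome and Sur7-family genes 11 rose and 3 fell (median 0.47). FMP45, a Sur7-family protein, went from 18.1 and 15.99 to 745 and 715 CPM (log2 fold change 5.42 with SE 0.082, adjusted p = 9.0e-21), and the core eisosome gene PIL1 from 427 and 416 to 1243 and 1231 CPM (log2 fold change 1.55 with SE 0.051, adjusted p = 1.8e-15). Of 8 genes for the proton pump and Hsp30-like proteins, 7 fell and 0 rose (median -0.76). PMA1, the proton ATPase that sets the membrane potential, went from 8255 and 8285 to 4770.1 and 4919 CPM (log2 fold change -0.77 with SE 0.039, adjusted p = 2.5e-12). HSP30, a membrane protein that restrains Pma1, went from 1514 and 1462 to 249.9 and 243 CPM (log2 fold change -2.60 with SE 0.058, adjusted p = 3.1e-18). The 2 groups of libraries were separate for these 4 genes. PMP2, a small regulator of Pma1, fell (-1.53, SE 0.056), and PTK2, a kinase that activates the pump but stands in the polyamine list, rose from 281 and 296 to 713 and 720.2 CPM (1.31, SE 0.055).

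The sodium pump genes ENA1 (1.21, SE 0.058), ENA2 (1.03, SE 0.062) and ENA5 (0.84, SE 0.067) rose; they are near-identical copies in tandem, between which reads may be shared. TRK1, the main potassium importer, fell from 311 and 316 to 172 and 165 CPM (-0.90, SE 0.054). Over all 18 sodium and potassium transport genes 5 rose (27.8%, near the 28.8% over all genes) and 7 fell (38.9% against 28.1%), with a median of -0.083. TPO2, a polyamine exporter of the plasma membrane, fell from 1863 and 1772 to 112 and 99.6 CPM (log2 fold change -4.12 with SE 0.069, adjusted p = 2.9e-20), the only fall of at least 16-fold. Its paralog TPO3 fell from 1256 and 1184 to 144 and 128 CPM (log2 fold change -3.18 with SE 0.066, adjusted p = 9.4e-19). Their activator HAA1, the weak acid response factor, also fell (-0.84, SE 0.067). In calcium signalling 7 of 15 genes fell and 2 rose; the calmodulin-dependent kinase CMK2 fell from 312 and 310.1 to 67.8 and 71.6 CPM (-2.15, SE 0.063). Of 42 cell wall genes 23 fell and 4 rose (median -0.26); CWP1, a mannoprotein, rose (3.04, SE 0.077) and the glucanosyltransferase GAS1 fell from 2007 and 1966 to 1124 and 1122 CPM (-0.82, SE 0.047).

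The HOG pathway's own genes were more often lower than higher. Of 15 sensor and kinase genes 8 fell (53.3% against 28.1% of all genes), 3 rose (20% against 28.8%) and 0 reached 2-fold (median -0.21). HOG1 went from 247 and 239 to 174 and 169 CPM (log2 fold change -0.50 with SE 0.059, adjusted p = 5.1e-07), and the osmosensor SLN1 from 186 and 176 to 118 and 115 CPM (log2 fold change -0.64 with SE 0.062, adjusted p = 4.8e-08). Of 6 phosphatase genes 2 rose and 1 fell; PTP2, which removes phosphate from Hog1, rose from 81.3 and 93.0 to 115 and 110.0 CPM (0.36, SE 0.073). Among 17 stress transcription factors 8 rose and 6 fell (median 0.10). The shares higher and lower were 33.3% and 16.7% of the phosphatases and 47.1% and 35.3% of these factors. Over all genes they were 28.8% and 28.1%. MSN2 rose from 114 and 112 to 187 and 184 CPM (0.71, SE 0.066) and its paralog MSN4 fell from 142 and 133 to 71.6 and 76.2 CPM (-0.88, SE 0.069). CIN5, a Yap-family factor of salt tolerance, rose from 29.5 and 27.6 to 115 and 106 CPM (1.94, SE 0.091), and HOT1 was not called (log2 fold change 0.10 with SE 0.075, adjusted p = 0.28). These are transcript levels and say nothing of phosphorylation. Of 31 known osmostress target genes 29 rose, 24 of them at least 2-fold, where 28.8% and 7.02% of all genes did. The median was 2.59. This list was written with earlier results of these data known, so its count is a description and no test of the response. The exceptions, named after their values were seen, were the transporter AQR1 (-0.996, SE 0.060) and the wall glycoprotein YGP1 (-0.56, SE 0.055).

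**Figure D4:**
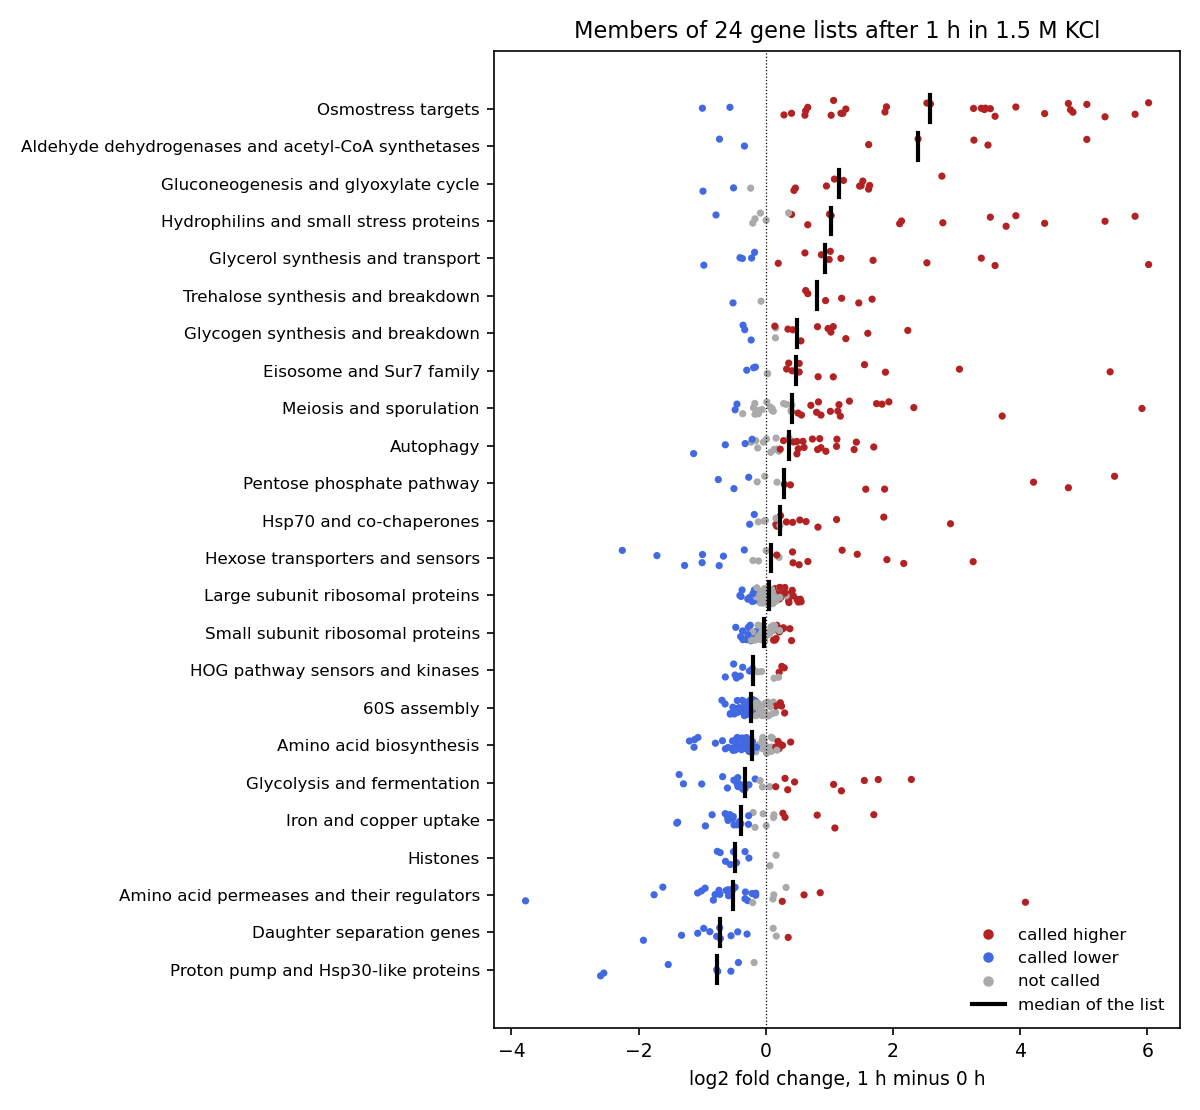
Log2 fold change of 1 h over 0 h (horizontal axis) for the members of 24 gene lists, with 1 point per gene, red if called higher, blue if called lower and grey if not called; the black bar is the list's median. Medians run from 2.59 in the osmostress targets to -0.76 in the proton pump list. The lists were written with earlier results of these data known.

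Genes of nitrogen supply were mostly lower. Of 31 amino acid permeases and regulators 22 fell and 4 rose (median -0.52). BAP3, a branched-chain amino acid permease, fell from 680.2 and 676 to 189 and 209.8 CPM (log2 fold change -1.76 with SE 0.057, adjusted p = 1.3e-15), and STP4, a zinc finger gene related to permease activators, from 810.1 and 734 to 57.8 and 55.4 CPM (log2 fold change -3.78 with SE 0.071, adjusted p = 1.7e-19). PUT4, the proline permease, went the other way, from 11.2 and 8.91 to 175 and 167 CPM (log2 fold change 4.08 with SE 0.13, adjusted p = 7.3e-16). The 0 h and 1 h libraries of these 3 genes did not overlap. Amino acid biosynthesis had 34 genes lower and 6 higher of 60 (median -0.22); the activator GCN4 fell from 1561 and 1545 to 748 and 735 CPM (-1.07, SE 0.051) and the glutamine synthetase gene GLN1 from 1573 and 1525 to 677 and 672 CPM (-1.20, SE 0.053). Of 28 purine and pyrimidine genes 18 fell and 4 rose (median -0.22).

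In ribosome assembly 42 of 68 genes of the large subunit fell and 4 rose (median -0.24), and 30 of 57 of the small subunit fell and 2 rose (median -0.18); 0 of these fell 2-fold, and UTP20, a processome subunit, went from 517 and 588 to 334 and 325 CPM (-0.75, SE 0.063). Ribosomal protein genes had medians of 0.050 (large subunit, 20 higher and 11 lower of 81) and -0.025 (small subunit, 11 higher and 13 lower of 56), and the 2 series differed in the sign of both medians. These counts depended on single libraries. The large subunit list had 24 higher and 7 lower without the series a library of 0 h, 12 and 14 without the series b library of 0 h, 9 and 13 without the series b library of 1 h, and 10 and 10 with DESeq2. The small subunit list had 2 higher without the series b library of 0 h, 1 without that of 1 h and 4 with DESeq2. Most exist as near-identical duplicates, so counts of single copies are uncertain. Of 41 translation factors 8 rose and 16 fell; DED1, an RNA helicase of start site scanning that is also found in stress granules, rose from 100.1 and 96.4 to 244 and 237 CPM (log2 fold change 1.29 with SE 0.060, adjusted p = 5.9e-13).

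Cell division genes fell in the phase of daughter separation. Of 14 such genes 11 fell and 1 rose (median -0.72): DSE2, a glucanase-like wall protein, went from 882 and 877 to 216 and 245 CPM (log2 fold change -1.92 with SE 0.066, adjusted p = 4.0e-15), and the chitinase CTS1 from 1670.4 and 1618 to 659 and 654 CPM (log2 fold change -1.32 with SE 0.050, adjusted p = 1.9e-14). Of 10 histone genes 8 fell and 0 rose (median -0.48). The share lower was 78.6% in the daughter separation list and 80% in the histones, against 28.1% of all genes. CIP1, an inhibitor of G1 cyclin kinase, fell from 406 and 399 to 31.7 and 27.8 CPM (log2 fold change -3.78 with SE 0.071, adjusted p = 1.6e-19). The cyclins and exit network list was mixed, with 12 higher and 11 lower of 32. These are 37.5% and 34.4%, not far from the 28.8% and 28.1% over all genes. The count of higher genes moved when the series a library of 0 h was left out, and DESeq2 called 6 higher and 11 lower. Of 56 replication genes 15 were higher (26.8%) and 14 lower, near the shares over all genes tested (28.8% and 28.1%); 8 were lower without the series b library of either time.

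The series title concerns Pol32 and RNase H1 in stress granules, cytoplasmic assemblies of stalled mRNA and protein. POL32, a subunit of DNA polymerase delta, stood at 29.0 and 33.4 CPM at 0 h and 29.2 and 26.6 CPM at 1 h and was not called (log2 fold change -0.18 with SE 0.12, adjusted p = 0.22). RNH1, which encodes RNase H1, an enzyme that degrades RNA paired to DNA in R-loops, fell from 69.2 and 68.3 to 55.5 and 56.5 CPM (log2 fold change -0.29 with SE 0.086, adjusted p = 0.0068). The groups overlapped for POL32 and did not for RNH1, whose change was small. RNH201, the catalytic subunit of RNase H2, rose from 28.8 and 32.2 to 56.4 and 58.7 CPM (log2 fold change 0.92 with SE 0.13, adjusted p = 9.5e-06), and the helicase SEN1, which resolves R-loops, fell from 545 and 525 to 332 and 300.2 CPM (log2 fold change -0.77 with SE 0.061, adjusted p = 2.4e-09). Over 20 genes of RNase H, R-loop and THO factors 6 rose and 6 fell, 30.0% each and near the shares over all genes. Of 32 stress granule and P-body genes 9 rose and 15 fell (median -0.12), and without the series a library of 0 h 9 were higher and 8 lower. With all libraries 28.1% of this list was higher, near the 28.8% over all genes, and 46.9% lower against 28.1%. RIE1, an RNA-binding protein gene of this list, fell from 525 and 537 to 172 and 175 CPM (log2 fold change -1.61 with SE 0.054, adjusted p = 2.6e-15).

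The 1 h libraries were also compared with the mean of 0.5 h and 1.5 h, a contrast that does not involve the 0 h libraries, asking for at least 2-fold and for both 1 h libraries to lie outside the range of the 4 neighbouring libraries. By this rule 46 genes (0.774%) were higher at 1 h and 5 (0.0841%) lower; with scaling by library size alone 30 were higher, and without the series b library of 1 h 8 were lower. FMP45 had its highest level at 1 h, where it reached 745 and 715 CPM, against 27.4 and 26.6 CPM at 0.5 h, then 685 and 681 after 1.5 h and 469 and 493 after 2 h (contrast 2.43, SE 0.051, adjusted p = 7.8e-18). TPS2 was lowest at 0.5 h and highest at 1 h, with 656 and 629 CPM in the 0 h libraries, 214 and 207 in those of 0.5 h, 2059 and 2038 in those of 1 h and 1676 and 1684 in those of 1.5 h (contrast 1.78, SE 0.041, adjusted p = 2.6e-17). SGA1, a glucoamylase of sporulation that breaks down glycogen, had 18.1 and 18.6 CPM after 0.5 h, 112 and 109 after 1 h and 98.2 and 104 after 1.5 h (contrast 1.35, SE 0.067). In these 3 genes 0.5 h was far below 1 h, and 1.5 h was slightly below it. GPD1 was instead higher at 1.5 h, at 4604 and 4555 CPM at 1 h and 4862 and 4811 at 1.5 h.

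Of the 5 genes lower at 1 h, ADE17, MET6 and HXT2 were far higher at 1.5 h. ADE17, an enzyme of late purine synthesis, stood at 109 and 111 CPM before stress, 77.6 and 80.6 after 0.5 h, 54.1 and 61.2 after 1 h and 390.0 and 392 after 1.5 h (contrast -1.59, SE 0.062, adjusted p = 7.7e-14). MET6, methionine synthase, had 137 and 132 CPM after 0.5 h, 112 and 114 CPM after 1 h and 492 and 504 CPM after 1.5 h (contrast -1.19, SE 0.054), and the glucose transporter gene HXT2 had 245 and 249.6 CPM, then 203 and 211 CPM, then 826 and 807 CPM at those times (contrast -1.11, SE 0.052). In all 3 the 1 h libraries were the lowest of the 6 and nearer to those of 0.5 h than to those of 1.5 h.

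Of the 46 genes higher at 1 h than at its neighbours, 29 were TYA frames, which encode the capsid protein of Ty retrotransposons. These frames were grouped by their annotation, without regard to the family of the element. This group was noticed after its values were seen. A further 3 of the 46 were frames that overlap 25S ribosomal RNA. The 45 TYA frames tested had 43 higher at 1 h than at 0 h, 0 lower and 20 at least 2-fold higher (median 0.98). They were not uniform, with log2 values of 0.012 to 1.46 against 0 h and 0.11 to 1.24 against the neighbouring times. Summed over the 45 frames, series a and b stood at 3475 and 3585 CPM before stress and at 4181 and 4296 CPM after 0.5 h. The sum was 6719 and 7307 CPM after 1 h, 2372 and 2547 CPM after 1.5 h and 2345 and 2112 CPM after 2 h. Both series were highest at 1 h and below their 0 h level at 1.5 h and 2 h. The 44 longer TYA-TYB frames, which overlap them, had 3 higher and 6 lower than at 0 h (median 0.015). Against the neighbouring times 43 of these 44 frames also had a value above 0 at 1 h, with a median log2 difference of 0.83 and a highest of 0.90, short of the 2-fold limit. Many copies are near-identical and the frames overlap, so how the reads were divided among them is not known and the frames are not independent.

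**Figure D5:**
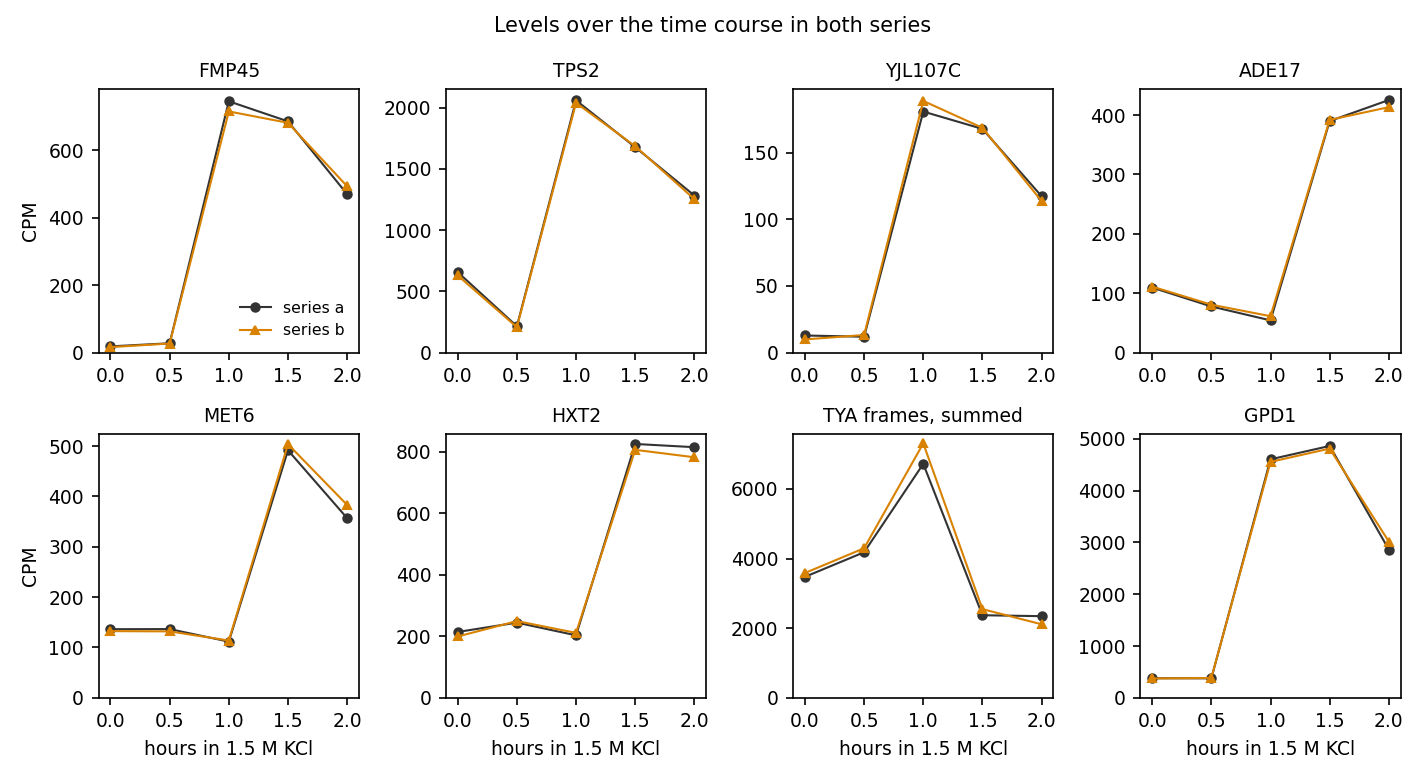
CPM (vertical axis, from 0) over hours in 1.5 M KCl for 7 genes and the sum of the 45 TYA frames, with circles for series a and triangles for series b. FMP45, TPS2, YJL107C and the TYA sum are highest at 1 h, ADE17, MET6 and HXT2 are lower at 1 h than at 0.5 h and 1.5 h, and GPD1 is at 4604 and 4555 CPM at 1 h and 4862 and 4811 CPM at 1.5 h.

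The genes that changed most also differed in level and place. Before the salt, the median level was 11.6 CPM in the 417 genes at least 2-fold higher and 190.4 CPM in the 110 at least 2-fold lower. Over all genes tested it was 71.4 CPM. The 0 h level is part of the fold change that picked both sets, so this difference was partly fixed by the choice. Of the 417, 15 had at most 3 reads in the 0 h libraries together, against 20 of all 5943. Of the 417, 31 (7.43%) shared bases with a second coding sequence, against 204 (3.43%) of all genes, which leaves their counts uncertain. Genes within 30 kb of a chromosome end made up 6.29% of all genes, 7.91% of the 417 and 13.6% of the 110. A neighbour at least 2-fold higher stood next to 13.3% of all genes and 28.1% of the 417. These shares are descriptions without a test.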

How the data were processed

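Poly(A)-purified RNA from 10 libraries (2 time series, 5 times) was sequenced. The deposited table gives estimated counts per annotated feature, which the authors made; the build is R64 per the submitters' processing notes, and the sources used here name no aligner, counter or strand setting. After 1302 gene and mRNA lines of 1 library and 4693 identical repeated lines were dropped, 5989 coding sequences remained, of which 5981 matched RefSeq's R64 by position. Of the counts 2.77% were not whole and were rounded, with 0.5 rounded up. No other per-sample columns were used.

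Genes were filtered with filterByExpr (46 left out), scaled by TMM and fitted with edgeR 4.0.16's quasi-likelihood model over all 10 libraries with time as the only term, under R 4.3.3, with Benjamini-Hochberg adjustment over 5943 genes. The standard error is the log2 fold change over the square root of F. The common biological coefficient of variation was 4.05%. DESeq2 1.42.0 was an alternative, as were other scalings, filters and leaving out libraries. The letters a and b name time series in the labels, and the correlation of deviations of same-lettered libraries was 0.0112. Motifs were counted in Python 3.11.15. The scripts were tested on simulated data. The floors (3 reads) cover counting error only. The standard errors also include the spread between replicate libraries that the fit estimated.

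Named genes were the largest 25 rises and 25 falls whose higher time averaged 10 CPM or more, up to 5 called members with the largest change and 2 uncalled members with the highest level of each list, up to 8 genes each way against the neighbouring times, both genes of each pair, and POL32 and RNH1. Members, lists and pairs were chosen with earlier results of these data known.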

Additional observations from a re-analysis of the deposited data

Results flagged for a closer look

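In 5 of the 61 gene lists with at least 5 tested members, the median log2 change of 1 h over 0 h had opposite signs in the 2 series, each of which has 1 library per time. These differences were not tested. The largest was in the large subunit ribosomal proteins, at -0.0719 in series a and 0.134 in series b, a difference of 0.206. The small subunit ribosomal proteins stood at -0.103 and 0.0421, a difference of 0.145, and the HOG pathway phosphatases at -0.0576 and 0.087, also a difference of 0.145. Mitochondrial ribosomal proteins differed by 0.0327 (-0.0157 and 0.0171), and ubiquitin with its conjugating enzymes by 0.0294 (-0.0141 and 0.0153).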

How the results depend on the processing

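The counts of genes called higher (1714) and lower (1669), and of those at least 2-fold higher (417) and lower (110), stayed within 1.5 times under each alternative tried. DESeq2's Wald test called 1305 higher and 1369 lower. Leaving out each 0 h or 1 h library in turn gave 1381 to 1542 higher, 1353 to 1514 lower, 402 to 427 at least 2-fold higher and 105 to 117 at least 2-fold lower. With the replicate block, 1736 were higher, 1700 lower, 419 at least 2-fold higher and 109 at least 2-fold lower; the letters name the series, but their deviations hardly correlated. Against the mean of 0.5 h and 1.5 h, 46 genes were higher and 5 lower; scaling by library size alone gave 30 higher, all among the 46, and leaving out each library gave 47 to 54 higher and 4 to 8 lower (8 without the series b library of 1 h). The cause was not tested.

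Of 108 genes with a fold change in the text, 3 changed side of the threshold, and none changed direction. These were MPC2, HSC82 and CDC19, which was called without the series a library of 0 h (adjusted p = 0.046, edgeR). Medians of 10 of 63 lists near 0 changed sign under at least 1 alternative. The largest shift of the median of all genes was -0.03 on the log2 scale, with upper-quartile scaling. Leaving out 1 library moved a count of called members by over 1.5 times in 29 lists, in 18 of them only counts under 5. In the smallest of the 0 h and 1 h libraries (3862638 reads), 3 reads correspond to 0.833 CPM after scaling, which limits genes at low levels.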

Other observations

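Genes of meiosis and sporulation, processes that a haploid strain does not complete, were often higher after 1 h. Of 36 such genes 18 rose, 11 of them at least 2-fold, and 2 fell, against 28.8%, 7.02% and 28.1% of all genes tested. SPS100, a spore wall gene, rose from 8.60 and 10.3 to 119 and 129 CPM (log2 fold change 3.72, SE 0.11). GIP1, a partner of protein phosphatase 1 in spore formation, rose from 11.2 and 12.1 to 45.3 and 39.1 CPM (log2 fold change 1.83, SE 0.14). UME6, a regulator of early meiotic genes, was not called, at 163 and 148 CPM at 0 h and 166 and 166 CPM at 1 h.

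Of 27 iron and copper uptake genes 16 fell (59.3% against 28.1% of all genes) and 5 rose (18.5% against 28.8%). The count that rose moved when the series b library of 1 h was left out. The metallothionein copies CUP1-1 and CUP1-2, which are near-identical so that reads may be divided between them, fell from 1302 and 1336 and from 1304 and 1320.0 CPM to 517 and 495 and to 500.1 and 495 CPM. HMX1, the heme oxygenase, rose from 18.1 and 18.5 to 61.6 and 58.3 CPM (log2 fold change 1.70, SE 0.12). Of 30 ergosterol synthesis genes 11 fell (36.7% against 28.1% of all genes) and 3 rose (10% against 28.8%). ERG11, lanosterol demethylase, fell from 1084 and 1093 to 763 and 783 CPM (log2 fold change -0.49, SE 0.050). In fatty acid synthesis 7 of 12 genes fell (58.3% against 28.1% of all genes) and 2 rose (16.7% against 28.8%). OLE1, the fatty acid desaturase, fell from 728 and 733 to 368 and 373 CPM (log2 fold change -0.98, SE 0.055). Of 18 genes of inositol and phospholipid synthesis 3 rose (16.7%) and 6 fell (33.3%), with a median of -0.068. INO1, which makes inositol phosphate, was among the rises, from 30.2 and 29.7 to 80.0 and 70.7 CPM (log2 fold change 1.31, SE 0.11). At the vacuole, 6 of 19 proton pump genes rose (31.6%, near the 28.8% over all genes) and 2 fell. VMA1, its catalytic subunit, rose from 1001 and 1021 to 1363 and 1401 CPM (log2 fold change 0.45, SE 0.051). TFS1, an inhibitor of carboxypeptidase Y, rose from 51.8 and 43.9 to 193 and 191 CPM (log2 fold change 2.00, SE 0.083). Mating genes went both ways: of 24, 7 rose (29.2%) and 8 fell (33.3%), near the 28.8% and 28.1% over all genes, with a median of -0.051. STE2, the alpha-factor receptor, was among the falls, from 966 and 1014 to 579.8 and 578 CPM (log2 fold change -0.77, SE 0.053).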
